A study of Mus musculus with 8 samples.

Results

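Keratins are the intermediate filament proteins of epithelial cells, and 10 keratin genes were followed in colon tissue of mice with colitis: 6 of simple epithelium (Krt7, Krt8, Krt18, Krt19, Krt20 and Krt23) and 4 of stratified squamous epithelium (Krt5, Krt14, Krt13 and Krt6a). They were taken by symbol from a table of 18262 genes, and each of the 10 had 1 row. The comparison is of 4 libraries from colon of wild-type mice given dextran sulfate sodium (DSS), which is toxic to the lining of the colon, with 4 libraries from wild-type mice given DSS and GAA (ganoderic acid A), which Ganoderma mushrooms make, at 20 mg/kg. The treatment labels of the GAA libraries read 20, 21, 22 and 23 mg/kg while the titles and design text give 20 mg/kg throughout, so the libraries were kept as 1 group. Strain, age, sex, the DSS schedule and whether each library is a separate animal are not given in the sources used here, so p-values measure the spread between these libraries. Colon of mice without DSS was not analysed here, and there is no healthy level to compare with.

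Keratin filaments are built from pairs of a type I and a type II protein. The columnar cells of the gut use Krt8, a type II keratin, with the type I keratins Krt18, Krt19 and Krt20, and Krt20 is known as a marker of the differentiated upper crypt and surface. Stratified epithelium, such as the lining of the anal canal next to the colon, uses Krt5 with Krt14 in its basal layer and Krt13 above it, and Krt6a is known as a keratin of wounded or stressed squamous epithelium. Mouse type I keratin genes lie together on chromosome 11, except for Krt18, which lies beside its partner Krt8 in the type II cluster on chromosome 15.

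The sequences upstream of 4 simple keratin genes are shown because these are 2 pairs of coding neighbours in which 1 gene passed the test described below and the other did not, a difference within a pair that did not itself pass for Krt8 and Krt18 and was not tested for Krt20 and Krt23: Krt8 and Krt18 on chromosome 15, and Krt20 and Krt23 on chromosome 11. They are RefSeq sequences of GRCm38.p6, read 5′ to 3′ along the gene, and they start 250 bases before the RefSeq start site and end before the first base that GENCODE vM21 annotates as exon. Capitals mark matches, on either strand, to TATAAA (the TATA box), GGGCGG (a GC box), TGANTCA (AP-1), TTTATNG (CDX), CAAAGTCCA (HNF4) or TAGGTCA (the ROR element). The stretches are Krt8 at chr15:102004483-102004592 (minus strand), Krt18 at chr15:102027966-102028179 (plus strand), Krt20 at chr11:99438154-99438403 (minus strand) and Krt23 at chr11:99493138-99493370 (minus strand).
Krt8: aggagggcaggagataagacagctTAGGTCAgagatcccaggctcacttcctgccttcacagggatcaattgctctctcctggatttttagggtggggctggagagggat
Krt18: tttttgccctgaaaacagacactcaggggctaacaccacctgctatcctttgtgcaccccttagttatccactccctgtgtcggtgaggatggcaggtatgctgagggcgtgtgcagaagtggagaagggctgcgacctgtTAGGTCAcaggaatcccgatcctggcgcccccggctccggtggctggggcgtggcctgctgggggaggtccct
Krt20: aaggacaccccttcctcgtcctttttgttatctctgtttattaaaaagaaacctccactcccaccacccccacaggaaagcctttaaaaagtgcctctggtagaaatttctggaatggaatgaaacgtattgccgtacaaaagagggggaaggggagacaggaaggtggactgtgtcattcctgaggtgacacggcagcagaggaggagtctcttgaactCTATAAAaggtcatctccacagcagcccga
Krt23: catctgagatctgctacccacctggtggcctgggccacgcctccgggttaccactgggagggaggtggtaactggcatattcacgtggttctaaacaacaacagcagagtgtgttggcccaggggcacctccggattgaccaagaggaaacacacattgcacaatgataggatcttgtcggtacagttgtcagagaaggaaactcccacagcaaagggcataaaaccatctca
The letters TAGGTCA stood at -226 to -220 in Krt8 and at -109 to -103 in Krt18, counted from the RefSeq start, and 2.23% of 32851 upstream windows of 250 bases held them. Krt20 had TATAAA at -29 to -24, which 12.4% of windows held, and the CDX letters matched there on the opposite strand from -30, overlapping it (9.81% of windows). Krt23 held none of the 6 motifs, of which GGGCGG was in 32.7% of windows, TGANTCA in 6.75% and CAAAGTCCA in 0.384%. A match describes the letters and is not evidence of binding. Of the 10 genes, 8 had an entry in the promoter table, and Krt19 and Krt6a had none.

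Values are in TPM as deposited, an abundance of transcripts scaled by their length and by the library total, so levels can be set side by side between genes, but sequencing depth is unknown. Genes with at least 1 TPM in at least 4 libraries were tested on log2(TPM + 1) with limma, and an adjusted p under 0.05 over 14217 tested genes counts as passing. All 6 simple keratins were tested, and of the squamous keratins Krt13 alone passed the filter. Krt8 rose and Krt23 fell in DSS + GAA, and the other 5 tested keratins did not pass. These 2 of 7 stand beside 34.1% of all tested genes that passed (5.96% higher, 28.2% lower), so the share of keratins that passed was near that of genes at large. The groups did not overlap for the same 2 of 7, beside 32.9% of all tested genes. Of all passing genes 82.5% were lower in DSS + GAA, against 42.2% under trimmed mean scaling, 48.8% under quantile normalization and 37.7% under median centring. All tested genes together had a median log2 fold change of -0.25, and the 6 simple keratins one of 0.09.

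**Figure D1:**
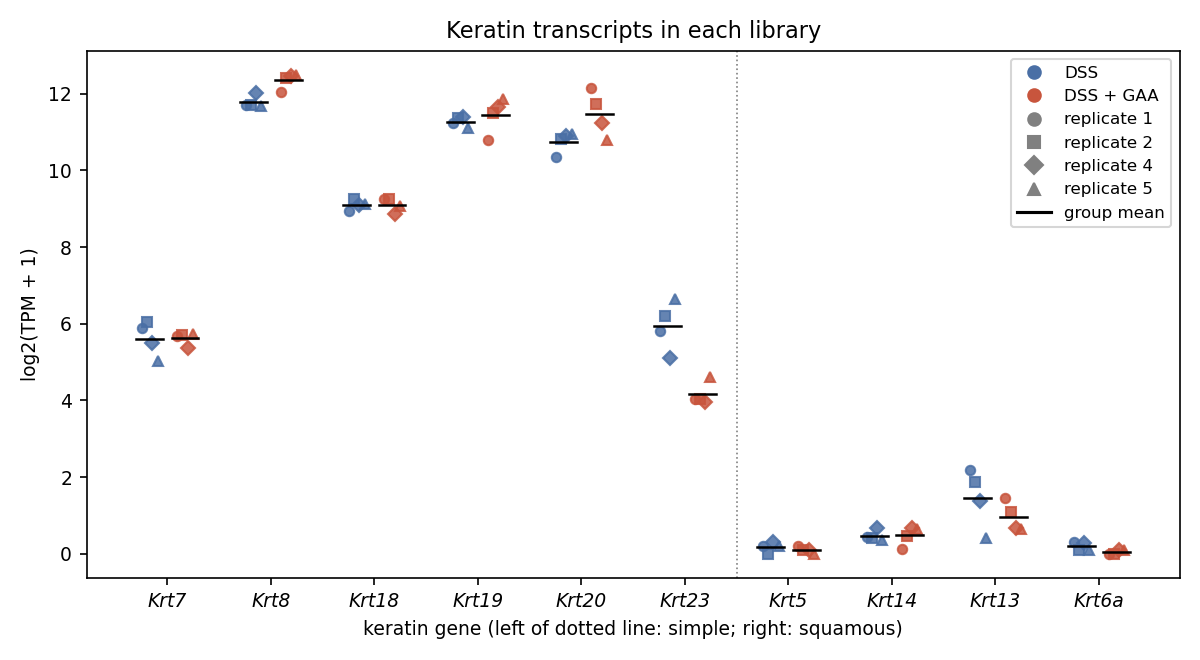
Level of each keratin on the log2(TPM + 1) scale in the 4 DSS (blue) and 4 DSS + GAA (red) libraries, with replicate numbers as symbols and black bars for group means. The simple keratins range from 14.6 TPM upwards in every library, while no squamous keratin exceeds 3.56 TPM.

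Krt8 is the main type II keratin of colonic epithelium, and it had the highest level of the 10 genes in all libraries except DSS + GAA replicate 1, where Krt20 was higher. Its TPM was 3328, 3320, 4137 and 3285 in DSS replicates 1, 2, 4 and 5, and 4254, 5416, 5621 and 5773 in the same-numbered DSS + GAA libraries. Every DSS + GAA library lay above every DSS library, with DSS replicate 4 and DSS + GAA replicate 1 closest to each other. The mean rose from 3517 ± 413 to 5266 ± 691 TPM (SD, n = 4 per group), a log2 fold change of 0.58 ± 0.16 (standard error; limma adjusted p = 0.0217). On its own this gene stands with the 5.31% of tested genes whose DSS + GAA values all lay above DSS. The call was lost with removal of DSS replicate 1 (limma adjusted p = 0.0704) or 2 (0.0521), or of DSS + GAA replicate 2 (0.0665), 4 (0.0582) or 5 (0.0507), and under quantile normalization (log2 fold change 0.42, limma adjusted p = 0.125). It held under trimmed mean scaling (0.89, limma adjusted p = 0.00791), median centring (0.88, 0.00824) and array quality weights (0.57, 0.00857). The authors' deposited values are a log2 fold change of 0.58 and a false discovery rate of 0.0169. The gene lies at chromosome 15, 101996698 to 102004482, on the minus strand, where it overlaps the long intergenic RNA gene Gm36026 on the plus strand. Whether the libraries kept strand is not stated, so reads of the pair cannot be told apart. GENCODE also lists a processed pseudogene, Krt8-ps, but the sources used here do not say how reads shared with it were counted.

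Krt7, a type II keratin more typical of ducts and transitional epithelium, was far less abundant than Krt8. Its TPM was 58.0, 64.6, 44.4 and 31.5 in DSS and 50.1, 51.1, 40.6 and 51.9 in DSS + GAA, in replicate order 1, 2, 4 and 5. The DSS + GAA values lay inside the DSS range. The log2 fold change was 0.01 ± 0.21, with a 95% interval of -0.47 to 0.49 (limma adjusted p = 0.976). Its sign turned with removal of DSS replicate 4 or 5, or of DSS + GAA replicate 1, 2 or 5. Krt7 lies at chromosome 15, 101411043 to 101430313, and overlaps the antisense gene Gm671.

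Among the type I partners, Krt18, which pairs with Krt8, did not pass. Its TPM was 490, 609, 550 and 552 in DSS and 611, 610, 463 and 537 in DSS + GAA, and the groups overlapped. The means were 550 ± 48.7 and 555 ± 70.4 TPM (log2 fold change 0.01 ± 0.14, 95% interval -0.30 to 0.32, limma adjusted p = 0.967). The sign turned under quantile normalization (-0.0799), and also with removal of DSS replicate 1, or of DSS + GAA replicate 1 or 2. Trimmed mean scaling and median centring gave 0.32 and 0.31, which did not pass (limma adjusted p = 0.166 and 0.180). The Krt8 to Krt18 ratio of TPM ran from 5.45 to 7.53 in DSS and from 6.96 to 12.1 in DSS + GAA, so the partner genes stood at unequal transcript levels in all 8 libraries. On the log2(TPM + 1) scale this ratio differed by 0.57 between the groups (two-sided exact permutation p = 0.0571, adjusted p = 0.210 over 11 ratios), and it did not pass.

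Krt19, a type I keratin of the crypt as well as the surface, was second in level in 6 libraries. Its TPM was 2402, 2637, 2673 and 2200 in DSS and 1771, 2885, 3196 and 3743 in DSS + GAA. The group means were 2478 ± 221 and 2899 ± 831 TPM (log2 fold change 0.18 ± 0.23, 95% interval -0.33 to 0.69, limma adjusted p = 0.564). DSS + GAA replicate 1 had the lowest value of all 8 libraries, and the other 3 lay above the whole DSS group; without it the log2 fold change was 0.40 (limma adjusted p = 0.0532). Under quantile normalization the log2 fold change was -0.0428. Trimmed mean scaling and median centring gave 0.49 and 0.48, which did not pass (limma adjusted p = 0.145 and 0.147).

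Krt20 had the widest range in TPM among the DSS + GAA libraries of the 10 keratins, though not relative to its mean. Its TPM was 1300, 1802, 1892 and 1975 in DSS and 4544, 3392, 2399 and 1772 in DSS + GAA. The first 3 DSS + GAA libraries lay above all DSS libraries and replicate 5 lay inside the DSS range. The means were 1742 ± 303 and 3027 ± 1212 TPM, and the log2 fold change of 0.73 ± 0.29 did not pass (95% interval 0.08 to 1.37, limma adjusted p = 0.0761). It passed without DSS + GAA replicate 5 (0.95, limma adjusted p = 0.0270), with array quality weights (0.71, 0.0354), and under trimmed mean scaling (1.04, 0.0389) or median centring (1.03, 0.0433). The authors' deposited table gives a log2 fold change of 0.80 and a false discovery rate of 0.00198 for it. The range over the 18 alternatives fitted here ran from 0.50 without DSS + GAA replicate 1 to 1.04.

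**Figure D2:**
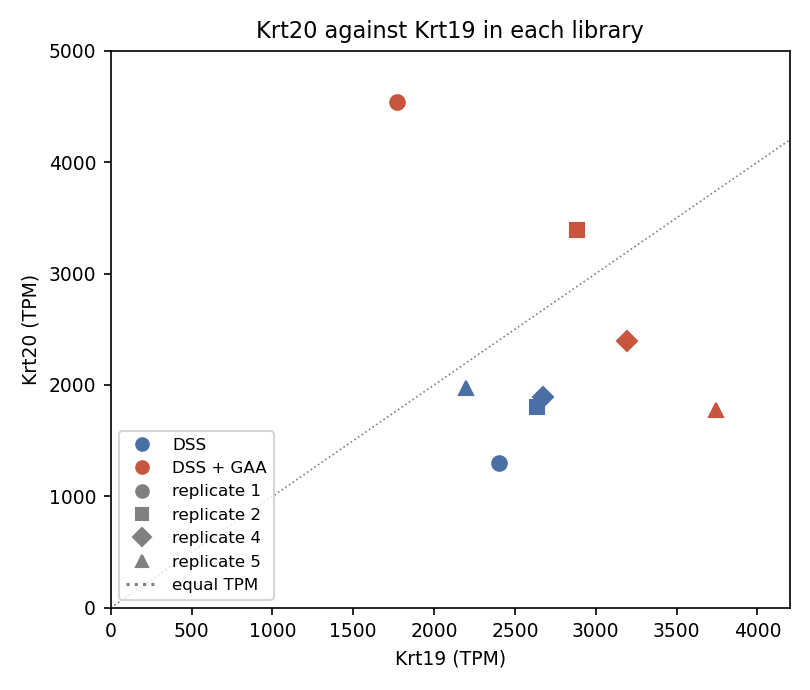
Krt20 (vertical axis, TPM) against Krt19 (horizontal axis, TPM) in each library, with DSS in blue, DSS + GAA in red, replicate numbers as symbols and a dotted line of equal TPM. The DSS libraries sit together below the line, while the DSS + GAA libraries spread from 4544 TPM of Krt20 with 1771 TPM of Krt19 to 1772 TPM of Krt20 with 3743 TPM of Krt19.

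Within DSS + GAA the order of the libraries by Krt20 was the reverse of that by Krt19. The ratio of Krt20 to Krt19 was 2.57, 1.18, 0.751 and 0.473 in DSS + GAA replicates 1, 2, 4 and 5, and 0.541, 0.683, 0.708 and 0.898 in the same-numbered DSS libraries. The DSS + GAA values thus spread over both sides of the DSS range. Between groups the log2 ratio differed by 0.55 (two-sided exact permutation p = 0.429, adjusted p = 0.673). The difference was 0.10 when DSS + GAA replicate 1 was left out and 0.92 when its replicate 5 was. The share of simple keratin transcripts that was Krt20 ran from 14.9% to 40.4% in DSS + GAA and from 17.03% to 24.3% in DSS.

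Krt23, a type I keratin next to Krt20 in the same cluster, showed the largest difference of the 7 tested keratins, and in the opposite direction to Krt8. Its TPM was 55.5, 72.8, 33.8 and 98.5 in DSS and 15.6, 15.6, 14.6 and 23.3 in DSS + GAA. All 4 DSS + GAA libraries lay below all 4 DSS libraries, as did those of 27.6% of all tested genes. The mean fell from 65.1 ± 27.4 to 17.3 ± 4.04 TPM, a log2 fold change of -1.78 ± 0.30 (limma adjusted p = 0.00590). Relative to the median of all tested genes the change was -1.53. It passed under all 18 alternatives, with log2 fold changes from -2.05 to -1.48. The gene spans chromosome 11, 99477974 to 99493137, and Krt20 spans 99428403 to 99438150, both on the minus strand with no annotated coding gene between them.

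**Figure D3:**
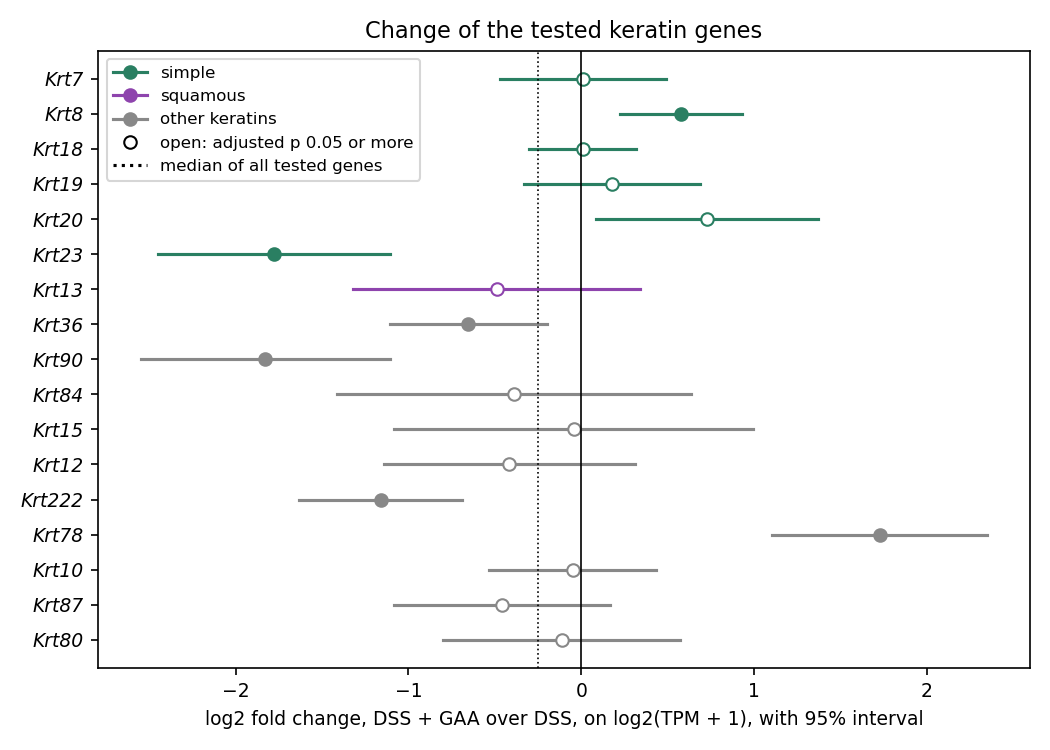
Log2 fold change of DSS + GAA over DSS on the log2(TPM + 1) scale with 95% intervals from limma, for the 7 tested members and the 10 other tested keratins. Filled points passed at an adjusted p under 0.05, and the dotted line marks the median of all tested genes at -0.25; Krt8 (0.58) and Krt23 (-1.78) lie on opposite sides of it.

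The squamous keratins were close to the bottom of the scale in both groups. Krt5, the basal type II keratin, was listed at 0.159, 0, 0.235 and 0.152 TPM in DSS and 0.146, 0.070, 0.074 and 0 TPM in DSS + GAA. Its partner Krt14 was listed at 0.347, 0.331, 0.587 and 0.285 TPM in DSS and 0.091, 0.391, 0.603 and 0.561 TPM in DSS + GAA. Both pairs of groups overlapped, and the differences in mean of -0.064 TPM for Krt5 (two-sided exact permutation p = 0.257) and 0.024 TPM for Krt14 (p = 0.771) did not pass.

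Krt13, the suprabasal type I keratin, reached 3.56, 2.68, 1.58 and 0.336 TPM in DSS and 1.76, 1.14, 0.609 and 0.568 TPM in DSS + GAA. The groups overlapped because DSS replicate 5 was the lowest library of all. The log2 fold change was -0.49 ± 0.37 (95% interval -1.32 to 0.34, limma adjusted p = 0.326). It was -0.25 when DSS replicate 1 was left out, -0.84 when DSS replicate 5 was (limma adjusted p = 0.0537), and -0.32, -0.19 and -0.0904 under trimmed mean scaling, median centring and quantile normalization. Krt6a was listed at 0.230, 0.073, 0.226 and 0.073 TPM in DSS and at 0, 0, 0.072 and 0.072 TPM in DSS + GAA. Its groups did not overlap, by a margin of the last decimal given, and a two-sided exact permutation gave p = 0.0286, the smallest that 70 assignments can give. With no filter on low values, limma over all genes gave adjusted p = 0.104 for Krt6a, 0.428 for Krt5 and 0.947 for Krt14, so none of the 3 passed. The authors' deposited table lists Krt6a with a log2 fold change of -2.03 and a false discovery rate of 0.0247. Krt6a shares much sequence with its neighbour Krt6b, and the sources used here do not say how shared reads were counted, so its value is uncertain at this level.

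Simple against squamous, the contrast was of level more than of change. The 6 simple keratins summed to 7633 to 9329 TPM in the DSS libraries and 11246 to 12369 TPM with GAA, and the 4 squamous keratins to 0.846 to 4.30 TPM and 1.201 to 1.99 TPM. Squamous transcripts thus made up at most 0.0563% of the 10 keratins in any library. The simple keratins took up 0.840% ± 0.0714 of all TPM in DSS and 1.18% ± 0.0463 in DSS + GAA. The sum grew in DSS + GAA mostly through Krt8 and Krt20, while Krt18 made up 6.56% ± 0.541 of it in DSS and 4.71% ± 0.631 in DSS + GAA. These sums are descriptions and were not tested.

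**Figure D4:**
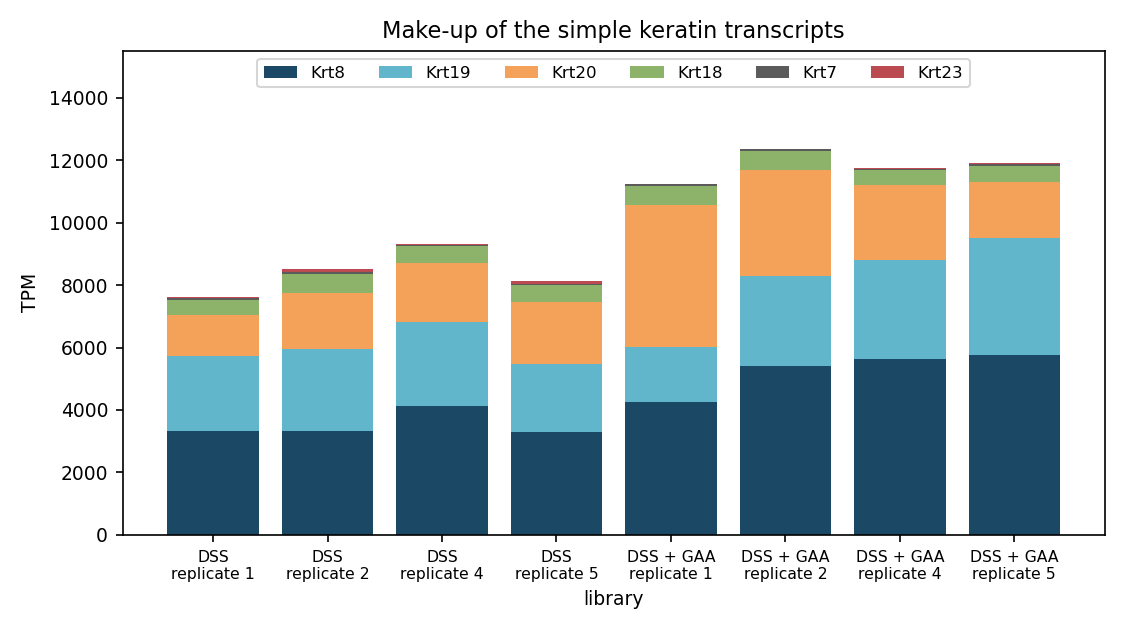
Stacked TPM of the 6 simple keratins in each library, from Krt8 at the bottom to Krt23 at the top. The DSS bars reach 7633 to 9329 TPM and the DSS + GAA bars 11246 to 12369 TPM, and the Krt20 part varies most within DSS + GAA.

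Of the 11 ratios within libraries that were compared, none passed after adjustment; 2 reached the smallest exact permutation p of 0.0286. These were Krt5 to Krt8, lower by 0.66 on the log2(TPM + 1) scale in DSS + GAA, and Krt23 to the epithelial adhesion gene Epcam, lower by 2.19 (adjusted p = 0.157 for both). With Krt5 near 0 in all libraries, the first of these carries little beyond the change of Krt8. Against Epcam, the log2 ratio of Krt8 differed by 0.17 (two-sided exact permutation p = 0.514), that of Krt19 by -0.23 (p = 0.629), that of Krt20 by 0.32 (p = 0.257) and that of Krt7 by -0.40 (p = 0.286). Leaving out DSS + GAA replicate 1 turned the Krt19 difference to 0.0579, raised that of Krt8 to 0.34 and lowered that of Krt20 to 0.16. Leaving out DSS + GAA replicate 5 took these 3 to -0.46, 0.0378 and 0.46. For Krt7 the difference was -0.22 when DSS replicate 1 was left out and -0.62 when DSS replicate 5 was. The remaining ratios were Krt7 to Krt8 (difference -0.57, p = 0.143), Krt5 to Krt14 (-0.09, p = 0.657) and Krt14 to Krt18 (0.00490, p = 0.971), all by the two-sided exact permutation test. For genes well above 1 TPM, a ratio within a library depends little on the scaling between libraries, which does not hold for Krt5 and Krt14. Krt23 stood lower against Epcam in 4 of 4 DSS + GAA libraries than in any DSS library.

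The summed level of general epithelial genes was higher with GAA, as was that of the simple keratins. Of 16 listed genes of intestinal epithelium, 4 rose, 0 fell and 12 did not pass, with a median log2 fold change of 0.43 beside -0.25 for all tested genes. Among all tested genes 5.96% rose and 28.2% fell. Vil1, the microvillus protein villin, rose from 429 ± 113 to 992 ± 151 TPM, the transcription factor gene Hnf4a from 162 ± 50.4 to 315 ± 37.9 TPM and the tight junction gene Cldn3 from 219 ± 35.1 to 322 ± 23.3 TPM (limma adjusted p = 0.00554, 0.00953 and 0.0180). The most abundant, the galectin gene Lgals4, did not pass (log2 fold change 0.51, limma adjusted p = 0.0502). Cldn4 and Cdx2, named after their values were seen, had log2 fold changes of -1.02 and -0.67 and did not pass (limma adjusted p = 0.0608 and 0.120). The count of risers was 9 under median centring as under trimmed mean scaling, and 8 with array quality weights. Removal of DSS + GAA replicate 1 or 5 gave 6 risers and 1 fall, array quality weights also gave 2 falls, and removal of DSS + GAA replicate 2 left 2 risers. Over all genes, risers went from 847 (main fit) to 2165 under median centring, 2129 under trimmed mean scaling and 1165 with array quality weights. The list summed to 9999 to 13328 TPM in the DSS libraries and 15751 to 16417 TPM with GAA. Lgals4 was the largest part, with 5023 of a mean sum of 11751 TPM in DSS and 7068 of 16222 TPM with GAA. The sum, and any ratio to it, thus follows Lgals4 more than the other genes of the list. The simple keratin sum divided by this sum was 0.720 ± 0.0733 in DSS and 0.728 ± 0.0184 in DSS + GAA (SD, n = 4 per group), with DSS replicate 5 lowest at 0.611. In bulk tissue, more epithelial cells and more keratin RNA per epithelial cell cannot be told apart.

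**Figure D5:**
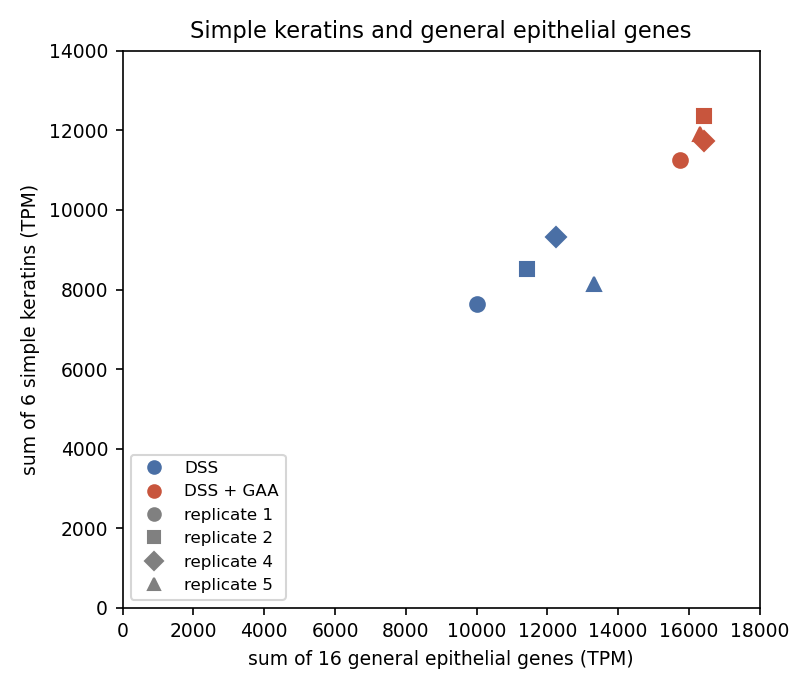
Sum of the 6 simple keratins (vertical axis, TPM) against the sum of 16 general epithelial genes (horizontal axis, TPM) in each library, DSS in blue and DSS + GAA in red, replicate numbers as symbols. Both sums are higher in the 4 DSS + GAA libraries, and the keratin sum per epithelial sum lies between 0.611 and 0.763 in all 8.

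Genes whose products tie keratin filaments to junctions changed in both directions. Of 19 listed keratin-binding and desmosome genes, 16 were tested: 8 rose, 2 fell and 6 did not pass, with a median log2 fold change of 0.37. As a share of all tested genes, 5.96% rose and 28.2% fell. The plakin genes Evpl (envoplakin) and Eppk1 (epiplakin) rose from 5.64 ± 2.67 to 19.4 ± 7.49 and from 1.67 ± 0.612 to 6.22 ± 2.10 TPM (limma adjusted p = 0.0108 and 0.00673). The most abundant member, Perp, a desmosome-associated membrane protein gene, rose from 355 ± 36.9 to 482 ± 25.5 TPM (limma adjusted p = 0.0219). The 2 that fell were Dsg3, a desmoglein of stratified epithelium (3.06 ± 0.777 to 0.859 ± 0.535 TPM, limma adjusted p = 0.00822), and the cytolinker gene Dst, which is named after its value was seen (log2 fold change -0.61, limma adjusted p = 0.0234). Risers numbered 3 with removal of DSS replicate 1 and of DSS + GAA replicate 2. There were 4 with removal of DSS replicate 2, and removal of DSS + GAA replicate 4 left 5. Only 1 gene fell under the 3 other scalings and with removal of DSS replicate 1, 4 or 5, or of DSS + GAA replicate 2, 4 or 5.

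Surface colonocyte genes, the setting in which Krt20 is best known, moved in both directions. Of 15, 5 rose, 2 fell and 8 did not pass (median log2 fold change 0.68), while 5.96% of all tested genes rose and 28.2% fell. The water channel gene Aqp8 rose from 220 ± 106 to 713 ± 257 TPM and Ms4a12 from 87.8 ± 43.7 to 192 ± 22.4 TPM, and Car1, a carbonic anhydrase gene, fell from 2704 ± 412 to 1200 ± 490 TPM (limma adjusted p = 0.0111, 0.0118 and 0.00955). Lypd8, the most abundant, did not pass (log2 fold change 0.50). Removal of DSS replicate 1 left 2 risers, as did removal of DSS + GAA replicate 2. Removal of DSS replicate 2 or 4, or of DSS + GAA replicate 5, left 3. With no filter on low values there were 3 as well. Trimmed mean scaling gave 9 risers and median centring 8, while risers over all genes went from 847 to 2129 and 2165. The falls numbered 1 under the 3 other scalings and with removal of any DSS library, or of DSS + GAA replicate 2, 4 or 5.

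Most markers of stratified squamous epithelium had no row or lay below the filter, and those tested moved in both directions. Of 24 listed genes 19 had a row and 8 were tested: 1 rose, 3 fell and 4 did not pass. Among all tested genes the shares were 5.96% higher and 28.2% lower. Trp63, the transcription factor that defines basal squamous cells and is named outside the rule for named genes, lay at or below 0.119 TPM in every library. The list summed to 580 to 878 TPM in the DSS libraries and 1354 to 1510 TPM with GAA, and most of that sum came from Tgm3, Sfn, Serpinb5, Ly6d and Sprr1a, genes that columnar gut epithelium can also express and that are named, apart from Tgm3, after their values were seen. The transglutaminase gene Tgm3 rose from 246 ± 97.5 to 809 ± 109 TPM (limma adjusted p = 0.00514). Dmkn and Sbsn, secreted proteins of the epidermis, fell from 12.7 ± 1.56 to 4.28 ± 2.33 and from 4.58 ± 1.13 to 1.37 ± 0.445 TPM (limma adjusted p = 0.00743 and 0.00554). Falls numbered 2 under the 3 other scalings and with removal of DSS replicate 1, 2 or 5, or of DSS + GAA replicate 2, 4 or 5. Risers numbered 2 under trimmed mean scaling, median centring and array quality weights.

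Of 12 listed genes of wound-associated epithelium, 11 were tested: 1 rose, 5 fell and 5 did not pass (median log2 fold change -0.60). Beside these counts, 5.96% of all tested genes rose and 28.2% fell. The growth factor genes Hbegf and Areg fell from 125 ± 65.0 to 40.9 ± 5.82 and from 349 ± 227 to 116 ± 46.2 TPM, and Clu (clusterin) fell from 64.2 ± 4.78 to 26.8 ± 11.1 TPM (limma adjusted p = 0.00806, 0.0214 and 0.0120). Ly6a, a surface antigen of regenerating epithelium and of lymphocytes, rose from 5939 ± 706 to 9818 ± 2397 TPM (limma adjusted p = 0.0274). Removal of DSS replicate 1 left 2 falls, as did removal of DSS + GAA replicate 2, and median centring and trimmed mean scaling each gave 2. Removal of DSS replicate 2 or 4, or of DSS + GAA replicate 4, left 3, as did quantile normalization. Removal of DSS + GAA replicate 1 gave 7 falls. Risers numbered 2 under trimmed mean scaling and median centring, and with removal of DSS + GAA replicate 4. The rise of Ly6a was lost with removal of DSS replicate 1, 2 or 4, or of DSS + GAA replicate 2.

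Other cells of the tissue can carry simple keratins. Mesothelium, the outer covering of the bowel, expresses Krt7, Krt8, Krt18 and Krt19, and its 8 listed markers summed to 20.1 to 43.7 TPM in the DSS libraries and 3.13 to 6.05 TPM with GAA. Most of the mean DSS sum of 28.7 TPM was Msln (mesothelin), and the markers that were not tested lay below the filter. All 3 that were tested fell, among them Msln, from 19.4 ± 9.54 to 1.30 ± 0.318 TPM (limma adjusted p = 0.00425). Falls numbered 1 with removal of DSS replicate 1, 4 or 5 and under quantile normalization or median centring. They numbered 2 under trimmed mean scaling and with removal of DSS replicate 2, or of DSS + GAA replicate 2, 4 or 5. When any DSS library was left out, 2 of these genes passed the filter. Of 7 urothelial genes 5 had a row; 1 of 4 tested rose (Upk1a, 3.45 ± 1.27 to 8.35 ± 1.18 TPM) and 1 fell (Upk1b, 4.48 ± 1.71 to 1.09 ± 0.377 TPM). Of 9 tuft cell genes 6 were tested and 2 fell, Avil and Dclk1 (limma adjusted p = 0.0181 and 0.0339), with 4 falls on removal of DSS + GAA replicate 1, 0 on removal of DSS replicate 1 and 1 on removal of any other library. Under the 3 other scalings 0 of these genes fell. Of 9 smooth muscle genes, 1 fell (Mylk, limma adjusted p = 0.0280) and 8 did not pass. Their sums overlapped, at 2086 to 5486 TPM for DSS and 1638 to 3958 TPM for DSS + GAA. No smooth muscle gene fell (0 falls) with removal of DSS replicate 1 or 4, or of DSS + GAA replicate 4 or 5, nor under median centring or trimmed mean scaling. With removal of DSS + GAA replicate 1, 3 fell. Beside the counts for these cell types, 28.2% of all tested genes fell and 5.96% rose. The part of these other cells in the keratin values was not tested.

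The listed intermediate filament genes other than keratins included falls and no rise. Of 13 tested, which include the neuronal filament genes, vimentin, desmin and the lamins, 0 rose, 6 fell and 7 did not pass (median log2 fold change -0.93). Beside this, 5.96% of all tested genes rose and 28.2% fell. Prph, the peripherin of enteric neurons, fell from 79.2 ± 18.0 to 24.3 ± 11.9 TPM, and Ina and Nefm, further neuronal filament genes, from 6.58 ± 0.617 to 2.45 ± 1.16 and from 3.93 ± 0.644 to 1.62 ± 0.644 TPM (limma adjusted p = 0.00655, 0.00777 and 0.0110). Desmin, Des, the muscle filament gene and the most abundant of the list, did not pass (log2 fold change -0.23). Falls numbered 3 with removal of DSS replicate 1 or 2 and under trimmed mean scaling, and they numbered 2 under quantile normalization and median centring. They numbered 4 with removal of DSS replicate 4, or of DSS + GAA replicate 2, 4 or 5. With array quality weights, and with removal of DSS + GAA replicate 1, 8 fell. In 4 alternatives 1 gene rose, namely quantile normalization, median centring, array quality weights and removal of DSS + GAA replicate 1.

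Beyond the 10 genes, 29 other keratins had a row, and 17 of them lay below 1 TPM in every library. Of the 10 that were tested, 1 rose, 3 fell and 6 did not pass, with a median log2 fold change of -0.40. Over all tested genes 5.96% rose and 28.2% fell, so these counts stood near the shares of genes at large. Krt78, the coding neighbour of Krt8, was listed at 0.406, 0.290, 0.850 and 0.899 TPM in DSS and 2.105, 4.199, 6.308 and 5.505 TPM in DSS + GAA, without overlap (log2 fold change 1.73 ± 0.28, limma adjusted p = 0.00554). Krt90 fell from a mean of 15.8 TPM to 4.04 ± 2.38 TPM, and Krt222 from 3.94 ± 0.930 to 1.22 TPM (limma adjusted p = 0.00635 and 0.00655). Krt36 fell from 17.8 ± 4.63 to 10.7 ± 1.69 TPM, although DSS + GAA replicate 1 lay above DSS replicate 2 (limma adjusted p = 0.0341). Krt84 and Krt15 had group means between 4 and 9 TPM and did not pass (limma adjusted p = 0.530 and 0.949).

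The tested genes whose values followed a keratin most closely were ranked by Pearson's r over the 8 libraries on log2(TPM + 1) after subtraction of the group means. For Krt8, the most abundant simple keratin, the closest of 14216 were Hr (r = 0.983), Nherf4 (0.981) and Slc39a5 (0.979). For Krt13, the most abundant squamous keratin, they were Il6 (0.997), Bcl10 (0.994) and Ptgs2 (0.988). Between the keratins themselves the values were 0.846 for Krt8 with Krt19, -0.808 for Krt19 with Krt20, -0.387 for Krt8 with Krt18 and 0.860 for Krt7 with Krt13. These values describe 8 libraries that share their processing, and no test was made of them.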

How the data were processed

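Messenger RNA of colon tissue was sequenced in paired ends after oligo(dT) selection, per the labels' protocols, in 4 DSS and 4 DSS + GAA libraries. The authors deposited a TPM value per gene and library, with each library summing to 1000000, and a log2 fold change, p-value and false discovery rate (an adjusted p-value) per gene. GATK, SAMtools, edgeR, Subread, featureCounts, Bowtie2, HISAT2, Trimmomatic and the build mm10 are named, without versions or roles, per the submitters' processing notes. The test behind the deposited p-values and the depth of the libraries are not given in the sources used here, and TPM permits no count test.

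Genes with at least 1 TPM in at least 4 libraries were compared on log2(TPM + 1), a scale that understates the change of low genes, with limma 3.58.1 (R 4.3.3, statmod 1.5.0), group as sole term, variance trend and robust empirical Bayes, and Benjamini-Hochberg adjustment over 14217 genes. The 3 keratins below the filter and 11 ratios within libraries were compared by two-sided exact permutation over 70 assignments (scipy 1.17.1). Gene coordinates are from GENCODE vM21 (GRCm38, mm10). The fit was tested on simulated data with known changes. Alternatives were other pseudocounts, filters, scalings, empirical Bayes settings, weights, a replicate block and leaving out each library. Named were the 10 keratins, of each list the most abundant gene and the 3 with the smallest p, and of the other keratins the 5 most abundant and up to 5 with the smallest p among those that passed, and the 3 genes closest to Krt8 and to Krt13 by Pearson's r. Genes outside this rule are said to be so where named. The members and lists were chosen with earlier results of these data known.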

Additional observations from a re-analysis of the deposited data

Results flagged for a closer look

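Some single libraries lay far from the other 3 of their group, by the gap to the nearest divided by the group's range (Dixon's 95% value for 4 samples, 0.829). Of 56 groups checked 5 were marked, and chance marks about 1 in 20. Krt8 in DSS replicate 4 was 4137 TPM, where the others lay between 3285 and 3328 TPM, and it is the DSS library closest to the DSS + GAA group. Krt23 in DSS + GAA replicate 5 was 23.3 TPM against 14.6 to 15.6 TPM, and Krt7 in DSS + GAA replicate 4 was 40.6 TPM against 50.1 to 51.9 TPM.

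Krt79, a keratin known from the hair follicle and sebaceous duct, was 41.8 TPM in DSS + GAA replicate 1 and 0.076 to 0.141 TPM in the other 3 DSS + GAA libraries. In DSS it was 0 in replicate 1 against 0.077 to 0.079 TPM, a marking at the bottom of the scale. It was the sole gene of the table above 3 TPM in DSS + GAA replicate 1 and below 0.5 TPM in every other library. By the same limits Cpa1, Try4 and Prss2 stood out in DSS + GAA replicate 2, and Fgg and Fga in DSS replicate 1. These are named outside the rule for named genes.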

How the results depend on the processing

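The fall of Krt23 passed under every alternative. Krt8 missed the threshold under quantile normalization (log2 fold change 0.42) and with a replicate block (0.58, limma adjusted p = 0.0556), and lay between 0.53 and 0.68 with 1 library left out. It passed under trimmed mean scaling (0.89), median centring (0.88) and array quality weights (0.57). Krt20 passed under trimmed mean scaling (1.04), median centring (1.03) and array quality weights (0.71), and without DSS + GAA replicate 5 (0.95). With 1 library left out its log2 fold change lay between 0.50 and 0.95. Under trimmed mean scaling and median centring Krt18 was 0.32 and 0.31 and Krt19 was 0.49 and 0.48, and neither gene passed. Signs turned under quantile normalization for Krt18 (-0.0799) and Krt19 (-0.0428). They also turned with 1 library left out for Krt7 (-0.19 to 0.15), Krt18 (-0.0457 to 0.0925), the ratio of Krt19 to Epcam (-0.46 to 0.0579) and that of Krt14 to Krt18 (-0.15 to 0.17). The latter was -0.0652 at pseudocount 0.1 and -0.00302 at pseudocount 5. The difference in mean of Krt14, 0.024 TPM with all libraries, also turned, running from -0.0398 to 0.131 TPM with 1 library left out. Krt13 was not tested at a TPM of at least 5. The cause of these changes was not tested.

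Over all genes, 847 were higher and 4006 lower in DSS + GAA. Higher and lower genes numbered 2129 and 1554 under trimmed mean scaling, 1677 and 1601 under quantile normalization, and 2165 and 1308 under median centring. With 1 library left out, 361 to 1277 were higher and 1676 to 4435 lower. These scalings moved the median log2 fold change of all genes from -0.25 to 0.03, 0.02 and 0.05.

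The groups share the replicate numbers 1, 2, 4 and 5. Deviations from the group means of same-numbered libraries correlated at 0.180, -0.109, 0.146 and -0.0302 across genes, and 2 of the 4 DSS libraries correlated best with their own number, so the numbers were not treated as pairs. With the replicate block, 679 genes were higher and 3340 lower, 3 keratin-binding and desmosome genes rose, 3 surface colonocyte genes rose and 1 fell, 0 wound-associated genes rose, and Krt8 was the sole member whose call changed. Under the block 8 of the listed intermediate filament genes other than keratins fell. With 1 library left out of a ratio the exact test cannot go below 0.0571, and with the block not below 0.125, so only values were compared there. Depth is unknown, which means that no counting interval or floor can be given for the squamous keratins, most of them listed below 1 TPM.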

Other observations

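The spread of Krt20 within DSS + GAA was shared by other genes, including some of other cell types, so it was not particular to Krt20. In DSS + GAA replicates 1, 2, 4 and 5, Prph was 39.8, 27.3, 16.1 and 13.95 TPM and Mylk was 171, 126, 88.6 and 73.9 TPM. Other genes ran the opposite way, as Krt19 did, such as Cdx1 at 77.8, 173, 244 and 250 TPM. These examples were picked after their values were seen, and the cause of the spread was not tested. Over the 8 libraries, after subtraction of the group means, the tested gene closest to Krt20 was Ly6a (r = 0.992), chosen after its values were seen. Of the squamous list, Ly6d was 251, 146, 41.2 and 44.8 TPM in DSS + GAA replicates 1, 2, 4 and 5 and Sprr1a was 132, 87.5, 44.6 and 43.3 TPM, so both were highest in the libraries where Krt20 was highest. In DSS they ran from 13.9 to 48.4 TPM and from 15.8 to 54.1 TPM, and neither passed (limma adjusted p = 0.0812 and 0.0899).

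Krt8 and Krt19 had the same order of libraries within DSS + GAA, lowest in replicate 1 and highest in replicate 5.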
